A study of Mus musculus with 16 samples.

Results

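The transcriptomes of 8 cultures of mouse small-intestinal enteroids, epithelial cultures grown from crypts, were compared: 4 cultures carrying the MYO5B(G519R) mutation and 4 control cultures. They were chosen by their sample labels out of 16 cultures in the series, and the other 8 are the induced MYO5B knockout with and without a drug. Per the labels, the mutant genotype is Vil-CreERT2;Myo5b-flox/G519R, so that 1 Myo5b allele is floxed and the other carries the point mutation, and the mutant cultures received 1 µM 4-OH-tamoxifen for 24 h to switch on Cre, which the Vil1 promoter restricts to the epithelium. The control genotype is labelled only as control and its treatment as none. In the methods the controls are vehicle-treated cultures from Vil1-CreERT2;Myo5b flox/flox mice, whereas a legend calls them healthy littermates. If they had no 4-OH-tamoxifen, the effect of the drug and of Cre cannot be told apart from that of the mutation. All cultures were kept in differentiation medium for 2 days, came from 4 mice per group according to a figure legend of the study, and were sequenced as polyadenylated RNA.

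Myosin Vb, encoded by Myo5b, is an actin-based motor that binds Rab11 and Rab8 and moves recycling endosomes towards the apical membrane of polarized cells. In the intestine it delivers brush border transporters, and its inherited loss causes microvillus inclusion disease, in which enterocytes lose apical transporters and form internal inclusions lined by microvilli. Enteroids placed in differentiation medium hold absorptive enterocytes along with goblet, Paneth, enteroendocrine and tuft cells and remaining crypt cells. The fold changes below are averages over this mixture, so that fewer cells of a type and less RNA per cell cannot be told apart.

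Between 31466387 and 36920083 reads were counted per culture, and a count of 0, read as up to 3 counts, allowed a level of up to 0.0794 to 0.108 CPM, which covers counting error only. CPM are counts per 1000000 counted reads, here and below scaled by the TMM method, and are listed for cultures 1 to 4 in order. Where a comparison is given as 3 numbers, they are the log2 fold change of mutant over control ± its standard error and the Benjamini-Hochberg adjusted p of edgeR's quasi-likelihood test, with n = 4 cultures per group. Control culture 1 stood apart: its log2 expression correlated with the other controls at r = 0.950 to 0.953 and with the mutant cultures at 0.948 to 0.960, whereas the other controls correlated with each other at 0.982 to 0.985 and the mutant cultures at 0.972 to 0.989. Counts of called genes therefore depend on the cultures used. Most paragraphs close with the lowest and the highest count of such genes over the 8 fits that each left out 1 culture, and the highest is the one without control culture 1 unless another is named. By Xist and the Y-linked genes, 2 control cultures (1 and 2) and 1 mutant culture (3) came from female mice. Mutant culture 3 still held a few Y-linked reads, with Ddx3y at 0.581 and Eif2s3y at 1.28 CPM without TMM scaling. Control cultures 1 and 2 had 0 for both, and the source of these reads was not tested. Nonepithelial markers were low. The 7 tested of 25 fibroblast and smooth muscle markers summed to 81.6 to 110 CPM in the controls and 127 to 140 CPM in the mutants, with 3 called higher and 1 lower, and their part in the results was not tested. Of the 21 immune markers 10 were tested, of which 0 were called and which summed to 13.2 to 16.1 and 16.5 to 19.2 CPM.

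The targeted gene itself was not distinguishable between the groups. Myo5b (ENSMUSG00000025885, chromosome 18) measured 155, 223, 185 and 171 CPM in the control cultures and 135, 148, 169 and 132 CPM in the mutant cultures. The lowest 3 values were mutant ones and the ranges overlapped, with a log2 fold change of -0.33 ± 0.14, adjusted p = 0.109 by edgeR. Without control culture 1 it was -0.37, adjusted p = 0.0286. Counts per gene include transcripts of the point-mutated allele and the remaining parts of the recombined one, so these values do not check the genotype. Of the 99 genes tested within 10 Mb of Myo5b, 8 were called higher and 15 lower, 23.2% in all.

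A large part of the expressed genes changed in the mutant enteroids, in close to equal numbers up and down. Genes of cell adhesion, the cytoskeleton, injury and growth signalling were prominent among those that rose, and genes of ribosomes, mitochondria and detoxification among those that fell. In edgeR's quasi-likelihood test of these 8 cultures, 4778 of 17829 genes (26.8%) passed an adjusted p of 0.05, of which 2341 (13.1%) rose and 2437 (13.7%) fell. These shares are the background against which the gene groups below are read. Most of the changes were moderate: the median log2 fold change was 0.77 for the genes that rose and -0.72 for those that fell. At least 2-fold, 699 genes rose and 571 fell, and at least 4-fold 171 rose and 58 fell. For 4885 genes (27.4%) the 2 groups did not overlap, with the mutant above in 2426 and below in 2459, and 3965 genes were both called and free of overlap. Without control culture 1, 4244 genes (24.0%) rose and 3902 (22.1%) fell of 17647 tested. Of the 4774 called genes that could be tested both ways, 4725 were called again in the same direction and 0 turned. Those 2 fits share most cultures and the one left out was the control nearest to the mutants, so this repeat is no independent support. Leaving out control culture 3 instead gave 2880 called genes. In all 8 fits that left out 1 culture, 1323 genes were called higher and 1226 lower. Tested directly against the induced knockout cultures, the mutant cultures differed in 1 of 17943 genes (0.00557%) by edgeR and in 4 by DESeq2, with 772 at an unadjusted p under 0.05. With 4 cultures per group, and knockout cultures that differed among themselves for genes such as Rpl26, so low a count does not show that the 2 models are alike.

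**Figure D1:**
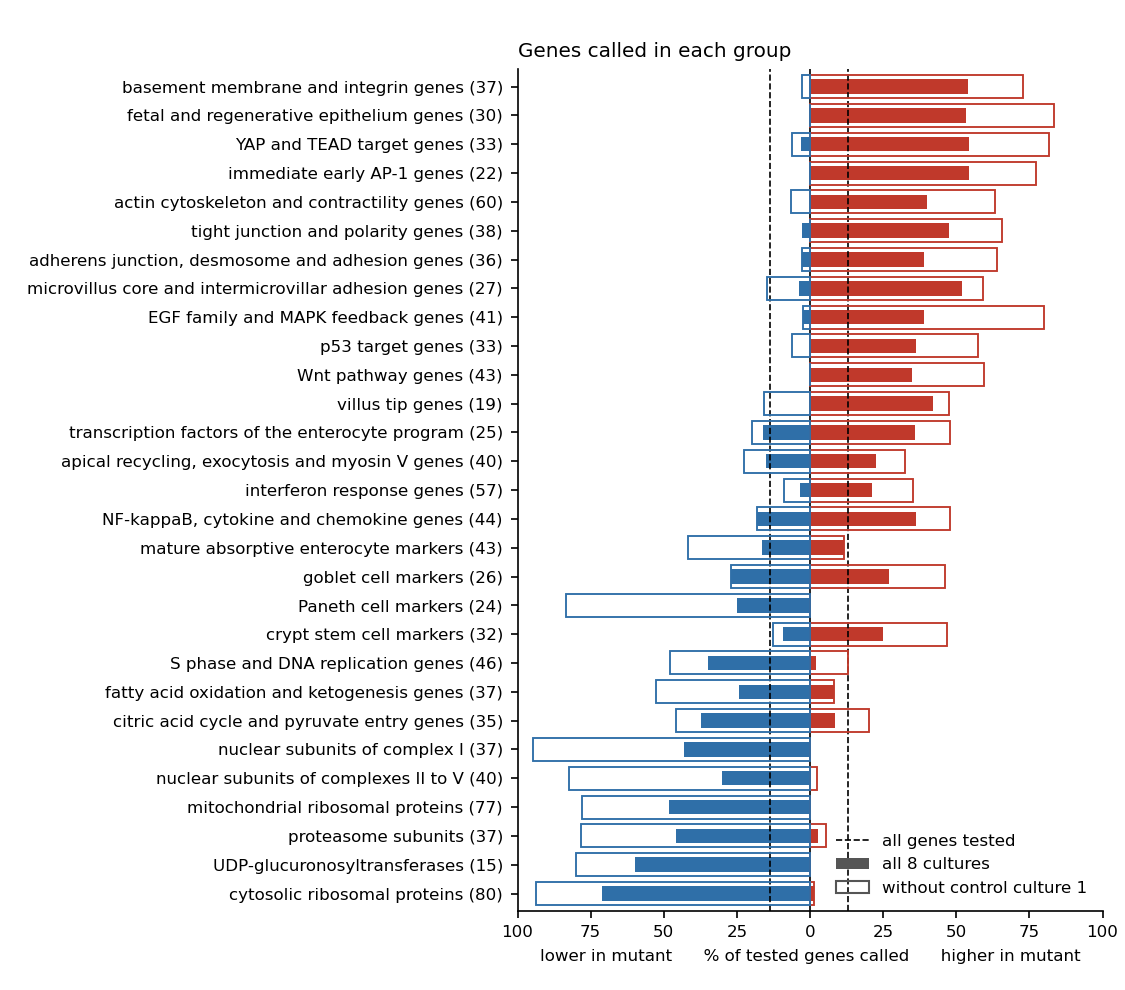
Percent of the tested genes of each group (vertical axis) called higher (red, right) and lower (blue, left) in MYO5B(G519R) against control cultures, with n genes tested in brackets; filled bars use all 8 cultures, open outlines leave out control culture 1. Dashed lines mark the shares over all genes, 13.1% higher and 13.7% lower; basement membrane, fetal, YAP and AP-1 genes lie beyond the right line, and ribosomal, mitochondrial and proteasome genes beyond the left one.

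Genes of the basement membrane and its receptors rose. The basement membrane is a sheet of laminins, type IV collagen, nidogen and perlecan under the epithelium, to which cells attach through integrins. Of 43 listed genes 37 were tested, and of these 20 rose (54.1%) and 0 fell, with a median log2 fold change of 0.88 against -0.05 over all genes tested. Among 7 tested laminin genes 6 rose (85.7%) and 0 fell, with a median of 1.44. Together the list took 0.155 ± 0.0404% (SD, n = 4) of the counts in the controls and 0.289 ± 0.0434% in the mutants, an exact two-sided permutation p of 0.0286, the smallest that 4 against 4 allows, and 0.0429 adjusted over 6 gene classes. The list was chosen with earlier results of these data known, so this p is no independent support. Lama5, the laminin alpha chain of the adult epithelial basement membrane, measured 45.0, 36.1, 27.0 and 26.1 CPM in the control cultures and 126, 140, 213 and 81.4 CPM in the mutant cultures. Each mutant culture lay well above each control, at 2.06 ± 0.29, adjusted p = 0.00222. The nidogen gene Nid1, whose product links laminin to collagen, went from 1.06, 2.58, 0.745 and 0.646 CPM in the controls to 6.80, 11.3, 25.3 and 16.8 CPM in the mutants, at 3.57 ± 0.53, adjusted p = 0.00246. Its highest control was culture 2 and its highest mutant culture 3. Itgb4, the beta chain of the hemidesmosomal laminin receptor, measured 67.4, 59.5, 49.6 and 40.0 CPM in the control cultures and 172, 180, 321 and 168 CPM in the mutant cultures, a difference of 1.96 ± 0.25, adjusted p = 0.00192. Mutant culture 3 was far above the other mutant cultures, which were still above all controls. Other laminin chains moved the same way, Lama3 (2.44 ± 0.44, adjusted p = 0.00476) and Lamb1 (1.73 ± 0.40, adjusted p = 0.0121), as did Col18a1, which encodes the collagen that yields endostatin, at 2.76 ± 0.48, adjusted p = 0.00404. Among integrin alpha chains, Itga3 (1.26 ± 0.14, adjusted p = 0.00181), Itgav (1.05 ± 0.25, adjusted p = 0.0140) and Itga6 (0.39 ± 0.11, adjusted p = 0.0311) rose, and the 2 groups did not overlap for any of the 3. After removal of each culture's dependence of expression on gene length, the list had 20 higher and 1 lower, with a median of 0.78. With 1 culture left out, 14 (without mutant culture 3 or control culture 3) to 27 of the basement membrane list and 4 (in 6 of the 8 fits) to 7 of the laminin genes rose.

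**Figure D2:**
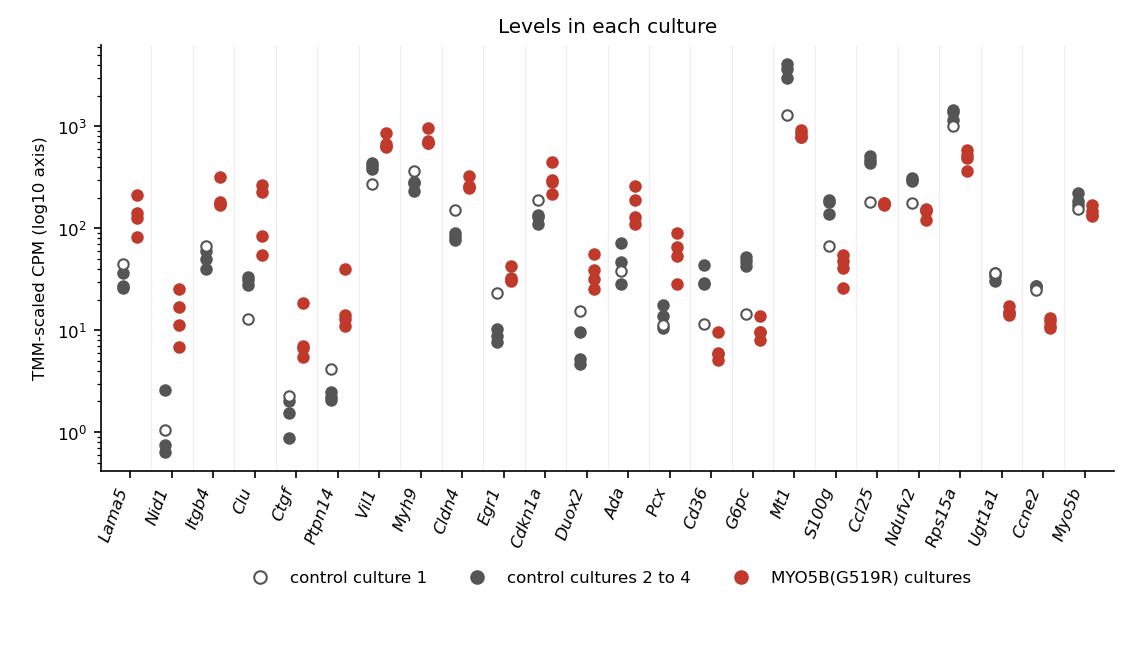
TMM-scaled CPM of 24 genes (log10 axis) in the 4 control cultures (grey) and the 4 MYO5B(G519R) cultures (red); each point is 1 culture and control culture 1 is drawn as an open circle. Structural and stress genes such as Lama5, Nid1 and Clu lie higher in all 4 mutant cultures, whereas for G6pc, Mt1 and Cd36 control culture 1 sits closest to the mutant cultures.

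Genes of fetal and injured epithelium and targets of the YAP and TEAD factors rose as well. YAP is a coactivator that enters the nucleus when cells spread or when the epithelium is damaged, and it drives a fetal-like program in regenerating crypts through the DNA-binding TEAD proteins. Of 31 fetal and regenerative genes 30 were tested and 16 rose (53.3%) and 0 fell, with a median of 0.97. The YAP and TEAD list, which shares genes with it, had 33 tested genes of which 18 rose (54.5%) and 1 fell, with a median of 0.76. Clu, which encodes clusterin and marks regenerating crypt cells, measured 12.8, 27.8, 31.3 and 33.4 CPM in the control cultures and 54.7, 83.7, 226 and 263 CPM in the mutant cultures. All mutant cultures were above the controls, cultures 3 and 4 by the widest margin, at 2.57 ± 0.50, adjusted p = 0.00627. The matricellular gene Ctgf (Ccn2) measured 2.28, 0.870, 2.02 and 1.54 CPM in the control cultures and 5.41, 6.65, 18.3 and 7.01 CPM in the mutant cultures, a difference of 2.47 ± 0.44, adjusted p = 0.00458, with mutant culture 3 again highest. Ptpn14 and Amotl1, which encode proteins that bind YAP and hold it out of the nucleus, were higher by 2.83 ± 0.44, adjusted p = 0.00305 and 2.13 ± 0.25, adjusted p = 0.00185. Ankrd1, a target of YAP in many cells, was near absence in the controls, at 0, 0.0645, 0 and 0 CPM, and had 0.231, 0.401, 0.767 and 1.43 CPM in the mutants. A like pattern held for the receptor tyrosine kinase gene Axl, with 0.0913, 0.0322, 0 and 0 CPM in the control cultures and 0.637, 1.29, 3.65 and 0.613 CPM in the mutant cultures. Control counts this low give no usable fold. Smaller changes were those of Anxa1, a phospholipid-binding protein of injured epithelium, at 1.40 ± 0.33, adjusted p = 0.0127, of Emp1 (0.98 ± 0.21, adjusted p = 0.00885) and of the keratin genes Krt19 (0.57 ± 0.16, adjusted p = 0.0243) and Krt7 (0.60 ± 0.15, adjusted p = 0.0171). Birc5, a mitotic survival gene on the YAP list, was its 1 member that fell, at -0.62 ± 0.16, adjusted p = 0.0178. Krt5, a keratin of squamous epithelium, had 0 counts in every control culture and was at least 6.82-fold higher in the mutants, the ratio of their mean to the highest level that 3 counts give in a control culture. Its mutant values were only 0.260, 0.0573, 1.75 and 0.876 CPM. Over the fits that left out 1 culture, 10 (without control culture 4) to 25 of the fetal list and 12 (without control culture 3) to 27 of the YAP list rose.

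Promoter sequences are shown for 5 genes that changed and whose window holds a word searched for. RefSeq windows of 300 bases, from 250 before to 50 after the transcription start, could be matched within 1000 bases of the start in the files for 10645 of the 17829 genes tested. The word GGAATG, read by TEAD, occurred on either strand in 12.1% of all these windows, in 12.2% of the windows of genes that rose and in 11.9% of those that fell. The AP-1 word TGANTCA was held by 5.23%, 5.83% and 4.50% in the same order. Words of enterocyte factors were more frequent in genes that fell: the HNF1 word GTTAAT occurred in 4.45% of all windows, 2.58% of those of risen genes and 5.80% of those of fallen genes, the CDX word TTTATG in 6.56%, 5.46% and 7.58%, and the GATA word AGATAA in 6.45%, 5.16% and 7.77%. The HNF4 word CAAAGTCCA was rare, at 0.526%, 0.491% and 0.555%. The median GC content of the windows moved with these shares, at 60.7% over all, 64.0% for risen and 58.3% for fallen genes, and its part in them was not tested. With genes called by DESeq2, the HNF1 word occurred in 2.87% of the windows of risen and 5.91% of those of fallen genes. The 250 bases before the start of 5 genes, from RefSeq GRCm38.p6 and written 5′ to 3′ on the gene's strand, follow with the TEAD words of the first 3, the AP-1 words of Cldn4 and the HNF1 word of G6pc in capitals.
Ankrd1: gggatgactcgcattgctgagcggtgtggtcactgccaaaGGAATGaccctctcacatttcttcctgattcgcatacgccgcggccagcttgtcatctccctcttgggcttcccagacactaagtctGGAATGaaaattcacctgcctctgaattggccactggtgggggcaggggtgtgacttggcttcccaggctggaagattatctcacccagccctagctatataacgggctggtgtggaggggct
Nid1: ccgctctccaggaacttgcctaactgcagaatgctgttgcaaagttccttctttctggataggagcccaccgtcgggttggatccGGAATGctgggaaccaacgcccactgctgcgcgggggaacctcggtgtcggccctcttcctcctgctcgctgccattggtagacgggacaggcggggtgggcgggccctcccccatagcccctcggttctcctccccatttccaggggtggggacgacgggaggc
Ptpn14: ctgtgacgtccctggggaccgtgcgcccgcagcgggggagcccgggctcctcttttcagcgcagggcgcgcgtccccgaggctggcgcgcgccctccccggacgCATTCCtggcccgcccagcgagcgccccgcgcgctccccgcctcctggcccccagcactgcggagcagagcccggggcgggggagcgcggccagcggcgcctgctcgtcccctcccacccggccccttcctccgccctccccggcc
Cldn4: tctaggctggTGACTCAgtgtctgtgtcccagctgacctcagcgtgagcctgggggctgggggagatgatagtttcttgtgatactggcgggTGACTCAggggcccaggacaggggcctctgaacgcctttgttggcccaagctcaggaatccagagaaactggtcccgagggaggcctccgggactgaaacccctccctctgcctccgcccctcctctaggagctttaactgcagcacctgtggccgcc
G6pc: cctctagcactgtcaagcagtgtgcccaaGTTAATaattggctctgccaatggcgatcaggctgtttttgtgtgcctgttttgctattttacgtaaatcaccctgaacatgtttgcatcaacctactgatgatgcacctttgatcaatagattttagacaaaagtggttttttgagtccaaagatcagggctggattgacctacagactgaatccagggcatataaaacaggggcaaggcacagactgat
The windows of Ankrd1 (chr19:36119845-36120094, minus strand), Nid1 (chr13:13437352-13437601, plus strand) and Ptpn14 (chr1:189728018-189728267, plus strand) hold 2, 1 and 1 TEAD words. The window of Ankrd1 also holds 1 GATA word, left in lower case. That of Cldn4 (chr5:134946935-134947184, minus strand), a tight junction gene, holds 2 AP-1 words, and that of G6pc (chr11:101367466-101367715, plus strand), a gluconeogenic gene, holds 1 HNF1 word. These are matches of letters and do not show binding.

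The brush border scaffold and the actin cytoskeleton changed in the same direction. Microvilli are bundles of actin held by villin and linked at their tips by protocadherins. Of 27 genes of the microvillus core and its adhesion complex, 14 rose (51.9%) and 1 fell, with a median of 0.60. Vil1, which encodes villin and whose promoter drives the Cre used here, measured 273, 436, 406 and 378 CPM in the control cultures and 621, 640, 855 and 672 CPM in the mutant cultures. Every mutant culture exceeded every control, at 0.90 ± 0.18, adjusted p = 0.00622. The 2 protocadherins of the intermicrovillar complex, Cdhr2 (1.10 ± 0.23, adjusted p = 0.00779) and Cdhr5 (1.20 ± 0.18, adjusted p = 0.00255), and its myosin, Myo7b (1.07 ± 0.15, adjusted p = 0.00222), rose too. Calml4, the light chain of that myosin, moved the other way: it measured 147, 326, 265 and 290 CPM in the control cultures and 145, 146, 123 and 111 CPM in the mutant cultures, at -0.97 ± 0.22, adjusted p = 0.0123, and control culture 1 lay beside the mutant values. In the wider actin and contractility list 60 genes were tested and 24 rose (40.0%) and 0 fell, with a median of 0.54. Nonmuscle myosin heavy chain gene Myh9 measured 367, 282, 275 and 232 CPM in the control cultures and 680, 686, 968 and 718 CPM in the mutant cultures, a difference of 1.40 ± 0.18, adjusted p = 0.00196. The severing protein gelsolin, Gsn (1.75 ± 0.20, adjusted p = 0.00183), the formin Inf2 (1.63 ± 0.29, adjusted p = 0.00426), the large scaffold Ahnak (1.70 ± 0.31, adjusted p = 0.00496) and beta-actin itself, Actb (0.80 ± 0.17, adjusted p = 0.00770), also rose. Of 36 microtubule and kinesin genes 14 rose (38.9%) and 1 fell, among them the dynein heavy chain Dync1h1 (1.37 ± 0.25, adjusted p = 0.00515) and the kinesin Kif13b (1.38 ± 0.22, adjusted p = 0.00333). With the gene length trend removed, the actin list had 24 higher and 2 lower, with a median of 0.39, and the microvillus list 12 higher and 1 lower, with a median of 0.35. When single cultures were left out, 17 (without control culture 3) to 38 actin, 11 (in 4 of the 8 fits) to 16 microvillus and 11 (without mutant culture 3 or control culture 4) to 21 microtubule genes rose.

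The machinery that myosin Vb works with changed in both directions. Of 40 genes of apical recycling and exocytosis 9 rose (22.5%) and 6 fell (15.0%), and the median was 0.06. The share that fell was close to the 13.7% over all genes. With the gene length trend removed 5 rose and 9 fell, with a median of -0.08. Rab11a, the GTPase that recruits myosin Vb to recycling endosomes, measured 77.7 to 109 CPM in the controls and 96.6 to 104 CPM in the mutants, and the syntaxin gene Stx3 of apical vesicle fusion 68.7 to 90.3 CPM in the controls and 75.6 to 87.2 CPM in the mutants. Neither difference passed the test, with log2 fold changes of 0.04 ± 0.12, adjusted p = 0.854 and 0.06 ± 0.11, adjusted p = 0.725. The Rab11 adaptor Rab11fip1 measured 75.0, 67.7, 66.8 and 61.1 CPM in the control cultures and 122, 126, 164 and 126 CPM in the mutant cultures, at 0.99 ± 0.13, adjusted p = 0.00194. The recycling endosome ATPase Ehd1 (0.86 ± 0.11, adjusted p = 0.00196) also rose. Vamp7, a vesicle SNARE of the apical route, fell from 47.0, 68.4, 57.4 and 56.3 CPM to 30.5, 32.3, 39.7 and 30.6 CPM, at -0.78 ± 0.14, adjusted p = 0.00478, and the exocyst subunit gene Exoc6 (-0.70 ± 0.10, adjusted p = 0.00219) fell. For these 4 genes the groups did not overlap. Of 51 lysosome genes 12 rose (23.5%) and 6 fell. Progranulin, Grn (1.00 ± 0.25, adjusted p = 0.0159), and the proton pump subunit Atp6v0a1 (1.13 ± 0.23, adjusted p = 0.00671) rose, whereas the membrane protein Lamp2 (-0.59 ± 0.11, adjusted p = 0.00556) and the cathepsin Ctsc (-0.81 ± 0.22, adjusted p = 0.0240) fell. The counts moved with the cultures used: leaving out 1 gave 3 (without control culture 3) to 13 rises and 2 (in 5 of the 8 fits) to 9 falls on the recycling list, and 8 (without control culture 3) to 23 rises and 4 (in 3 of the 8 fits) to 10 falls among lysosomal genes.

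Cell junction genes were called higher far more often than lower. Tight junctions seal the space between epithelial cells, and adherens junctions and desmosomes bind neighbouring cells. Of 38 of the 41 listed genes of tight junctions and polarity that were tested, 18 rose (47.4%) and 1 fell, with a median of 0.50. Of 36 adherens and desmosomal genes 14 rose (38.9%) and 1 fell, with a median of 0.64. Cldn4, a sealing claudin, measured 151, 82.4, 89.0 and 76.1 CPM in the control cultures and 252, 246, 327 and 260 CPM in the mutant cultures, at 1.45 ± 0.22, adjusted p = 0.00272. Control culture 1 was the highest control and still below the lowest mutant. Cldn23 measured 13.1, 14.3, 10.1 and 8.40 CPM in the control cultures and 31.3, 30.7, 36.3 and 27.9 CPM in the mutant cultures, a difference of 1.46 ± 0.18, adjusted p = 0.00192. The scaffold ZO-1 gene Tjp1 (0.83 ± 0.20, adjusted p = 0.0145), the giant cadherin Fat1 (1.67 ± 0.34, adjusted p = 0.00683) and the protocadherin Pcdh1 (1.05 ± 0.22, adjusted p = 0.00770) rose. Nectin3, an adhesion molecule of the nectin family, was the exception among adherens genes and fell from 248, 228, 235 and 242 CPM to 163, 158, 158 and 166 CPM, at -0.56 ± 0.10, adjusted p = 0.00385. Cdh1, which encodes E-cadherin, measured 962, 371, 419 and 378 CPM in the control cultures and 877, 889, 1029 and 948 CPM in the mutant cultures and did not pass with all cultures (0.81 ± 0.30, adjusted p = 0.0676), but did without control culture 1 (1.30, adjusted p = 3.51e-05), whose value lay among the mutant ones. In the fits without 1 culture, 14 (in 4 of the 8 fits) to 25 tight junction and 11 (in 3 of the 8 fits) to 23 adherens genes rose.

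Growth factor and immediate early genes were called higher more often than lower. AP-1 is a dimer of Jun and Fos proteins induced within minutes by growth factors and stress. Of 22 tested immediate early genes 12 rose (54.5%) and 0 fell, with a median of 0.74, and of the Jun and Fos family 5 of 6 rose. Junb measured 66.8, 72.2, 82.2 and 72.2 CPM in the control cultures and 143, 142, 149 and 91.0 CPM in the mutant cultures, at 0.84 ± 0.16, adjusted p = 0.00569, with mutant culture 4 lowest among the mutants. Egr1, an immediate early zinc finger factor, measured 23.4, 7.58, 10.2 and 8.83 CPM in the control cultures and 30.7, 32.2, 42.6 and 31.2 CPM in the mutant cultures, at 1.45 ± 0.33, adjusted p = 0.0113. Control culture 1 was well above the other controls but below all mutants. Fosl1 (1.57 ± 0.35, adjusted p = 0.0102) and Nr4a1 (1.09 ± 0.29, adjusted p = 0.0201) rose, and Fos (1.09 ± 0.34, adjusted p = 0.0414) was called although control culture 1, at 28.0 CPM, lay inside the mutant range. Of 41 EGF family and MAPK feedback genes 16 rose (39.0%) and 1 fell. The receptor Egfr (0.63 ± 0.18, adjusted p = 0.0302) and the feedback phosphatases Dusp1 (1.19 ± 0.22, adjusted p = 0.00544) and Dusp6 (0.96 ± 0.24, adjusted p = 0.0183) rose. Nrg4, a ligand of the ErbB4 receptor, was the member that fell, from 5.72, 11.5, 7.36 and 8.65 CPM to 3.24, 3.70, 3.73 and 3.30 CPM, at -1.25 ± 0.22, adjusted p = 0.00457. Leaving out 1 culture gave 8 (without mutant culture 3 or control culture 3) to 17 rises among the immediate early genes, 3 (in 6 of the 8 fits) to 6 in the Jun and Fos family and 10 (without control culture 3) to 32 among the EGF and MAPK genes.

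Targets of p53, the factor that halts the cell cycle after DNA damage, rose, with 12 of 33 called higher and 0 lower and a median of 0.63. Cdkn1a, the cell cycle inhibitor p21, measured 189, 130, 136 and 110 CPM in the control cultures and 298, 283, 446 and 218 CPM in the mutant cultures, at 1.14 ± 0.23, adjusted p = 0.00746. Mutant culture 3 was the highest and control culture 1 the highest control, without overlap. Zmat3 (1.90 ± 0.31, adjusted p = 0.00339), Phlda3 (1.88 ± 0.24, adjusted p = 0.00194) and Gtse1 (1.22 ± 0.16, adjusted p = 0.00204), all direct p53 targets, rose with it. Of 43 tested Wnt pathway genes 15 rose (34.9%) and 0 fell, with a median of 0.49. With the gene length trend removed 10 rose and 2 fell, with a median of 0.34. The genes that rose with all cultures included the coreceptor Lrp5 (1.32 ± 0.22, adjusted p = 0.00378) and the beta-catenin cofactor Bcl9l (1.45 ± 0.15, adjusted p = 0.00177). Bcl9l measured 26.0, 21.0, 19.4 and 17.6 CPM in the control cultures and 57.9, 59.6, 64.8 and 47.6 CPM in the mutant cultures. In the BMP and TGF-beta pathway 8 rose (21.1%) and 2 fell of 38, and the ligand gene Bmp8b measured 16.3, 5.45, 5.46 and 3.09 CPM in the control cultures and 28.2, 35.9, 51.8 and 19.7 CPM in the mutant cultures, at 2.16 ± 0.49, adjusted p = 0.0110. The estrogen receptor list, of interest because 4-OH-tamoxifen binds that receptor, had 16 tested genes, of which 6 rose and 1 fell. Its receptor gene Esr1 measured only 0, 0.161, 0.155 and 0 CPM in the control cultures and 0.579, 0.115, 0.767 and 0.0876 CPM in the mutant cultures. Omitting 1 culture at a time, 10 (without control culture 3 or control culture 4) to 19 p53 targets, 8 (without control culture 3) to 25 Wnt, 4 (without control culture 3) to 21 BMP and TGF-beta and 2 (without control culture 3 or control culture 4) to 7 estrogen receptor genes rose.

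Immune and defense genes moved in both directions. Of 44 NF-kappaB, cytokine and chemokine genes 16 rose (36.4%) and 8 fell. The subunit gene Nfkb2 (1.04 ± 0.18, adjusted p = 0.00439) rose. Ccl25, the chemokine that draws lymphocytes to the small intestine, measured 183, 511, 471 and 439 CPM in the control cultures and 176, 174, 171 and 176 CPM in the mutant cultures. The mutant cultures were nearly equal and control culture 1 lay just above them, far below the other 3 controls, at -1.21 ± 0.27, adjusted p = 0.0104. Ccl20, a chemokine of the epithelium over lymphoid follicles, fell too, at -1.06 ± 0.20, adjusted p = 0.00518. Of 57 interferon response genes 12 rose (21.1%) and 2 fell. Oasl1, an interferon-induced regulator of antiviral signalling, measured 43.3, 35.5, 31.3 and 18.5 CPM in the control cultures and 110, 134, 156 and 87.6 CPM in the mutant cultures, at 1.92 ± 0.26, adjusted p = 0.00211, without overlap. Among 40 antimicrobial and mucosal defense genes 9 rose and 8 fell. Duox2, which makes hydrogen peroxide at the apical surface, measured 15.4, 9.64, 5.25 and 4.63 CPM in the control cultures and 31.7, 39.0, 55.9 and 25.2 CPM in the mutant cultures, at 2.12 ± 0.39, adjusted p = 0.00502. The C-type lectin gene Reg3a, by contrast, measured 54.6, 367, 201 and 294 CPM in the control cultures and 43.5, 43.8, 33.9 and 51.9 CPM in the mutant cultures, at -2.41 ± 0.46, adjusted p = 0.00588, and control culture 1 was close to the mutant cultures. In the Reg family 0 of 6 rose and 4 fell. In antigen presentation B2m, the light chain of class I molecules, fell (-0.94 ± 0.18, adjusted p = 0.00552), whereas the peptide transporter gene Tap1 (0.99 ± 0.26, adjusted p = 0.0187) rose. Without 1 culture at a time, rises numbered 9 (without control culture 3 or control culture 4) to 21 and falls 3 (without mutant culture 2) to 8 on the NF-kappaB list, 6 (without control culture 3) to 20 and 0 (in 5 of the 8 fits) to 5 on the interferon list, and 5 (without control culture 3 or control culture 4) to 11 and 4 (without mutant culture 1 or control culture 2) to 12 on the antimicrobial list. In the Reg family 2 (in 5 of the 8 fits) to 6 fell.

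Genes of mitochondrial energy metabolism were lower, with named exceptions. The respiratory chain passes electrons from NADH and succinate to oxygen through complexes I to IV, and complex V makes ATP. Of 37 nuclear complex I genes 16 fell (43.2%) and 0 rose, with a median of -0.70, and of 40 genes of complexes II to V 12 fell (30.0%) and 0 rose, with a median of -0.68. Without control culture 1 the counts were 35 and 33 lower, and with the length trend removed the medians were -0.46 and -0.52. Ndufv2, a complex I subunit, measured 175, 293, 309 and 297 CPM in the control cultures and 156, 151, 120 and 148 CPM in the mutant cultures, at -0.90 ± 0.19, adjusted p = 0.00746. Control culture 1 again lay between the other controls and the mutants. Ndufc1 (-0.94 ± 0.20, adjusted p = 0.00764), the succinate dehydrogenase gene Sdhb (-0.86 ± 0.17, adjusted p = 0.00678) and the ATP synthase gene Atp5c1 (-0.81 ± 0.18, adjusted p = 0.0103) fell likewise. Genes of the mitochondrial genome took 8.86 ± 1.72% (SD, n = 4) of the counts in the controls and 4.69 ± 0.487% in the mutants (exact permutation p = 0.0286, adjusted 0.0429). Among 53 genes of mitochondrial biogenesis and dynamics 15 fell (28.3%) and 3 rose: Tfam (-0.75 ± 0.13, adjusted p = 0.00402), which packages and transcribes mitochondrial DNA, and its partner Tfb2m (-0.81 ± 0.13, adjusted p = 0.00294) fell, while the DNA polymerase Polg (0.56 ± 0.11, adjusted p = 0.00677) and the fusion gene Mfn2 (0.69 ± 0.15, adjusted p = 0.00904) rose. In the fits that left out 1 culture, 3 (without mutant culture 3 or control culture 3) to 35 complex I genes, 4 (in 4 of the 8 fits) to 33 genes of the other complexes and 11 (without control culture 3) to 25 of the dynamics and expression list fell.

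The citric acid cycle showed both directions, with 13 of 35 genes lower and 3 higher. Dld, a subunit shared by several dehydrogenase complexes, measured 274, 283, 289 and 279 CPM in the control cultures and 169, 160, 144 and 170 CPM in the mutant cultures, at -0.81 ± 0.11, adjusted p = 0.00196, and its control values were uniform, culture 1 included. The mitochondrial pyruvate carrier gene Mpc1 fell from 16.9, 23.1, 29.7 and 25.2 CPM to 12.6, 11.8, 10.4 and 12.6 CPM, adjusted p = 0.00411. Pyruvate carboxylase, Pcx, which refills the cycle, showed the largest of the 3 rises, from 11.3, 13.9, 17.8 and 10.6 CPM to 53.7, 65.9, 89.4 and 28.7 CPM, at 2.15 ± 0.32, adjusted p = 0.00246. Ogdh (0.81 ± 0.16, adjusted p = 0.00651) and citrate synthase, Cs (0.37 ± 0.12, adjusted p = 0.0490), rose by less, and the Cs call was lost in 7 of the 8 fits that left out 1 culture. Gluconeogenesis and fructose genes fell in 7 of 13, with a median of -0.81. G6pc, glucose-6-phosphatase, measured 14.3, 52.2, 47.2 and 42.4 CPM in the control cultures and 9.52, 8.05, 13.7 and 9.67 CPM in the mutant cultures, at -1.93 ± 0.35, adjusted p = 0.00492. Fbp1 measured 59.7, 126, 115 and 96.4 CPM in the control cultures and 47.0, 45.3, 29.3 and 21.9 CPM in the mutant cultures, at -1.47 ± 0.29, adjusted p = 0.00621. In both, control culture 1 was the lowest control and close to the mutants. In glycolysis 7 of 27 rose, among them hexokinase, Hk2 (1.11 ± 0.30, adjusted p = 0.0225), and 1 fell, the muscle-type enolase Eno3 (-1.07 ± 0.21, adjusted p = 0.00622). With single cultures left out, 7 (without mutant culture 2 or control culture 3) to 16 citric acid cycle and 3 (in 6 of the 8 fits) to 10 gluconeogenic genes fell, and 2 (in 4 of the 8 fits) to 12 glycolytic genes rose.

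Lipid genes also split. Of 37 fatty acid oxidation genes 9 fell (24.3%) and 3 rose. The dienoyl-CoA reductase Decr1 measured 83.6, 116, 122 and 122 CPM in the control cultures and 66.5, 70.6, 62.1 and 63.0 CPM in the mutant cultures, at -0.76 ± 0.14, adjusted p = 0.00458, whereas Cpt1a, the entry enzyme for long fatty acids, rose from 60.1, 65.3, 67.5 and 60.9 CPM to 97.7, 102, 113 and 99.5 CPM, at 0.70 ± 0.10, adjusted p = 0.00222, as did the uncoupling protein gene Ucp2 (0.77 ± 0.13, adjusted p = 0.00378). Of 40 peroxisome genes 12 fell (30.0%) and 4 rose. In fatty acid synthesis 6 of 21 rose and 0 fell, including fatty acid synthase, Fasn (1.35 ± 0.15, adjusted p = 0.00181). The cholesterol list had 5 of 27 higher and 0 lower, but 6 higher and 11 lower without control culture 1. Srebf2, a regulator of sterol synthesis, was one of the risen members and measured 253, 199, 210 and 176 CPM in the control cultures and 394, 391, 373 and 355 CPM in the mutant cultures, at 0.85 ± 0.13, adjusted p = 0.00308. The triglyceride-forming enzyme Dgat2 rose (1.13 ± 0.15, adjusted p = 0.00204), and Cd36, a fatty acid receptor of the proximal intestine, fell from 11.4, 44.1, 28.6 and 29.0 CPM to 5.96, 5.13, 9.50 and 5.78 CPM, at -2.10 ± 0.37, adjusted p = 0.00416. Of 35 chylomicron and lipid absorption genes 3 rose and 3 fell, 8.57% each way and below the shares over all genes. The falls numbered 2 (in 5 of the 8 fits) to 13 on this last list when 1 culture was left out, 7 (in 4 of the 8 fits) to 19 in fatty acid oxidation and 6 (without control culture 3) to 19 among peroxisome genes, and 5 (in 3 of the 8 fits) to 8 fatty acid synthesis genes rose.

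**Figure D3:**
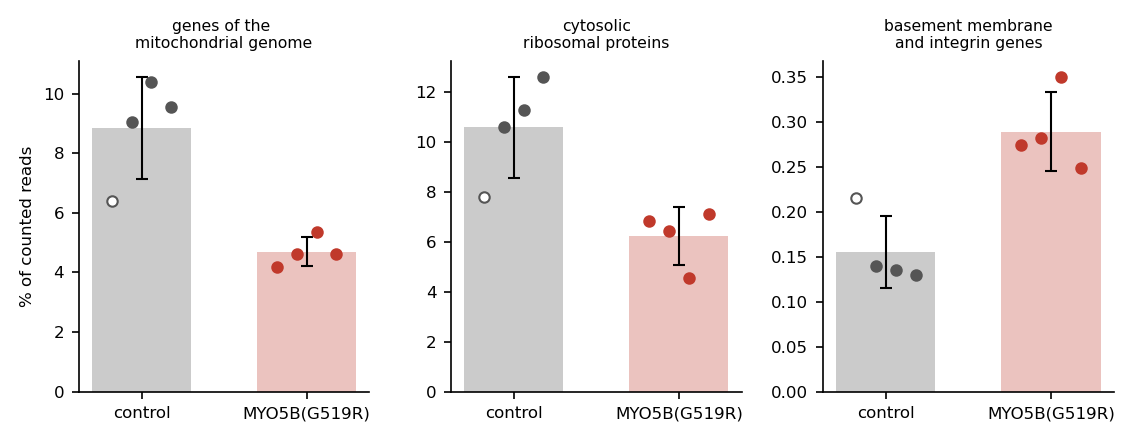
Percent of all counted reads per culture (vertical axes, linear from 0) on genes of the mitochondrial genome, cytosolic ribosomal proteins and basement membrane and integrin genes; points are single cultures, bars the mean of 4 and whiskers the SD. Control culture 1 (open circle) is the control nearest to the mutant cultures in all 3 panels, and the groups do not overlap.

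Ribosomal protein and proteasome genes fell. Of 80 tested cytosolic ribosomal protein genes 57 fell (71.2%) and 1 rose, with a median of -1.05, and the list went from 10.6 ± 2.03% of all counts in the controls to 6.24 ± 1.15% in the mutants (exact permutation p = 0.0286, adjusted 0.0429, n = 4 each). Rps15a measured 1014, 1165, 1395 and 1443 CPM in the control cultures and 528, 491, 361 and 586 CPM in the mutant cultures, at -1.35 ± 0.19, adjusted p = 0.00215. Mutant culture 3 was the lowest, and the same was seen for Rpl30 (-1.45 ± 0.30, adjusted p = 0.00770) and Rps27 (-1.43 ± 0.24, adjusted p = 0.00352). Of 77 mitochondrial ribosomal protein genes 37 fell (48.1%) and 0 rose, with a median of -0.61. Mrps22 was one of them, at 60.0 to 83.1 CPM in the controls and 31.8 to 40.7 CPM in the mutants and adjusted p = 0.00196. Elongation factor gene Eef1a1, among the highest counts in the culture, measured 12967, 15297, 17265 and 17340 CPM in the control cultures and 7722, 7529, 6760 and 9357 CPM in the mutant cultures, adjusted p = 0.00452. Of 37 proteasome subunits 17 fell (45.9%) and 1 rose. Psma3 of the core and Psmc6 of the cap fell (-0.85 ± 0.14, adjusted p = 0.00352 and -0.76 ± 0.10, adjusted p = 0.00212), and the 1 that rose was Psmd3 (0.50 ± 0.13, adjusted p = 0.0217). The small nucleolar RNA host genes, noncoding transcripts whose introns hold snoRNAs, had 0 higher and 5 lower of 15, Snhg6 (-0.92 ± 0.19, adjusted p = 0.00725) among them. With the gene length trend removed, the cytosolic ribosomal list still had 58 lower with a median of -0.92, the mitochondrial ribosomal list 36 with -0.52, and the proteasome list 17 with -0.44. Many ribosomal proteins have processed pseudogenes that can take their reads, so single values are uncertain. Rpl26 was the 1 ribosomal gene that rose, from 24.9, 33.3, 29.1 and 41.1 CPM to 336, 324, 239 and 364 CPM, at 3.30 ± 0.20, adjusted p = 0.000214. Its raw counts also split the induced knockout cultures, at 480, 10042, 10273 and 401, so it varied among cultures of the same label. The cause was not tested. Translation initiation and elongation factors, a family of 66 tested genes, had 19 lower and 6 higher, at a median of -0.21. Leaving out 1 culture, 41 (without control culture 3) to 75 cytosolic and 18 (without control culture 4) to 60 mitochondrial ribosomal genes fell, as did 12 (without control culture 3) to 29 proteasome genes. The falls numbered 17 (in 5 of the 8 fits) to 24 among initiation and elongation factors and 1 (without mutant culture 1 or mutant culture 2) to 6 (without mutant culture 4 or control culture 1) among snoRNA host genes.

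Glucuronosyltransferase and cytochrome P450 genes were called lower more often than higher. Glucuronosyltransferases attach glucuronic acid to bilirubin and drugs, and 9 of 15 fell with 0 rising and a median of -1.16. Ugt1a1, the bilirubin enzyme, measured 36.0, 30.1, 36.6 and 34.4 CPM in the control cultures and 17.3, 15.0, 14.2 and 14.9 CPM in the mutant cultures, at -1.16 ± 0.12, adjusted p = 0.00177. The Ugt1a genes share their 3′ exons, so their reads may not be told apart. Among cytochrome P450 genes 13 of 48 fell and 2 rose. Cyp1a1, a target of the aryl hydrocarbon receptor, measured 57.3, 42.8, 30.4 and 26.0 CPM in the control cultures and 6.16, 6.08, 15.6 and 15.4 CPM in the mutant cultures, at -1.85 ± 0.38, adjusted p = 0.00722. Cyp3a25 measured 104, 282, 210 and 207 CPM in the control cultures and 57.8, 63.4, 78.7 and 55.6 CPM in the mutant cultures, at -1.65 ± 0.26, adjusted p = 0.00317. 5 of 24 glutathione S-transferases fell, Gstz1 (-0.72 ± 0.10, adjusted p = 0.00225) among them, and 21 of 24 without control culture 1. Mt1, a metallothionein that binds zinc and copper, measured 1299, 4039, 2977 and 3647 CPM in the control cultures and 783, 792, 860 and 930 CPM in the mutant cultures, at -1.83 ± 0.30, adjusted p = 0.00355. The zinc importer gene Slc39a4 moved the opposite way, from 68.0, 35.5, 41.8 and 32.7 CPM to 102, 114, 139 and 104 CPM, at 1.37 ± 0.23, adjusted p = 0.00355. ABC transporters, which export drugs and lipids, had 12 of 38 higher and 2 lower. The multidrug transporter gene Abcb1b measured 0.0913, 0.870, 1.09 and 0.431 CPM in the control cultures and 3.96, 3.84, 16.0 and 3.71 CPM in the mutant cultures, at 3.46 ± 0.71, adjusted p = 0.00746, and Abcc4 (1.40 ± 0.22, adjusted p = 0.00317) rose as well. The sulfotransferases had 1 higher and 1 lower of 8 (12.5% each, near the shares over all genes), and the alcohol and aldehyde dehydrogenases 5 (22.7%) and 4 (18.2%) of 22. Among fits without 1 of the cultures, 7 (in 5 of the 8 fits) to 12 glucuronosyltransferases, 8 (without mutant culture 2 or control culture 2) to 20 P450 genes and 1 (in 3 of the 8 fits) to 21 glutathione S-transferases fell, and 9 (without control culture 3) to 18 ABC transporters rose.

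Absorptive enterocyte genes did not move as 1 block. Of 43 mature enterocyte markers 5 rose and 7 fell, shares of 11.6% and 16.3% that are close to those over all genes. Their summed share of the counts was 2.34 ± 0.917% in the controls and 1.86 ± 0.333% in the mutants (exact permutation p = 0.314), and control culture 1 had the lowest share of all, 1.06%. Without that culture 5 rose and 18 fell. Villus tip genes, the last stage of an enterocyte's life, had 8 of 19 higher and 0 lower, whereas antimicrobial genes of the villus bottom had 1 of 11 higher and 6 lower. Ada, adenosine deaminase of the villus tip, measured 38.1, 72.2, 46.4 and 28.5 CPM in the control cultures and 129, 190, 259 and 111 CPM in the mutant cultures, at 1.90 ± 0.33, adjusted p = 0.00411. Slc28a2, a nucleoside transporter of the same zone, measured 21.0, 15.1, 20.2 and 16.1 CPM in the control cultures and 57.0, 62.6, 83.7 and 24.5 CPM in the mutant cultures, at 1.65 ± 0.31, adjusted p = 0.00538. Among brush border enzymes the aminopeptidase gene Anpep rose from 162, 160, 168 and 151 CPM to 316, 357, 531 and 301 CPM, at 1.23 ± 0.18, adjusted p = 0.00247, and the dipeptidyl peptidase gene Dpp4 fell from 141, 214, 187 and 196 CPM to 118, 118, 118 and 86.2 CPM, at -0.74 ± 0.16, adjusted p = 0.00882. Sis, sucrase-isomaltase, measured 1302, 4813, 3494 and 3478 CPM in the control cultures and 1475, 1557, 2057 and 997 CPM in the mutant cultures and was called lower (-1.10 ± 0.36, adjusted p = 0.0464), a call lost in 7 of the 8 fits that left out 1 culture. Lct, lactase, did not pass (0.28 ± 0.37, adjusted p = 0.617). For Fabp2, the intestinal fatty acid binding protein, control culture 1 decided the call. It measured 116, 1275, 951 and 894 CPM in the control cultures and 231, 255, 307 and 316 CPM in the mutant cultures, at -1.54 ± 0.53, adjusted p = 0.0569 with all cultures and -1.88, adjusted p = 3.51e-05 without that one. When 1 culture was left out, 3 (in 5 of the 8 fits) to 18 mature enterocyte markers and 2 (in 3 of the 8 fits) to 9 villus bottom genes fell, and 5 (in 4 of the 8 fits) to 9 villus tip genes rose.

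Transcription factors of the enterocyte program moved in both directions, and the paralogs Hnf4a and Hnf4g moved apart. Hnf4a, a master regulator of enterocyte genes, measured 659, 616, 615 and 606 CPM in the control cultures and 815, 835, 824 and 804 CPM in the mutant cultures, at 0.39 ± 0.11, adjusted p = 0.0268, and Hnf4g measured 106, 264, 214 and 206 CPM in the control cultures and 84.2, 88.9, 125 and 81.9 CPM in the mutant cultures, at -1.06 ± 0.26, adjusted p = 0.0143. For Hnf4g the groups overlapped, since mutant culture 3 (125 CPM) lay above control culture 1 (106 CPM). The bile acid receptor gene Nr1h4 fell from 43.0, 42.0, 40.0 and 35.9 CPM to 23.3, 22.8, 23.4 and 21.5 CPM, at -0.82 ± 0.10, adjusted p = 0.00194, with even values in both groups. Klf4, a factor of differentiated cells, was called higher (0.84 ± 0.21, adjusted p = 0.0157). Of the 25 factors 9 rose and 4 fell. Of 33 nutrient transporters 5 rose and 5 fell, 15.2% each way and close to the shares over all genes, or 11 and 10 without control culture 1. Of 37 ion and water transport genes 7 moved each way (18.9%), or 14 up and 10 down without that culture. The glucose transporter Slc5a1 and the peptide transporter Slc15a1 measured 535 to 961 CPM in the controls and 483 to 930 CPM in the mutants and 18.2 to 47.0 CPM in the controls and 23.4 to 48.2 CPM in the mutants, and neither passed (-0.06 ± 0.23, adjusted p = 0.876 and 0.07 ± 0.32, adjusted p = 0.898). S100g, a calcium-binding protein of absorptive cells, measured 66.8, 180, 188 and 138 CPM in the control cultures and 47.3, 40.3, 54.6 and 26.2 CPM in the mutant cultures, at -1.76 ± 0.32, adjusted p = 0.00490. The imino acid transporter Slc6a20a (-1.41 ± 0.30, adjusted p = 0.00828), the chloride-bicarbonate exchanger Slc26a3 (-1.26 ± 0.22, adjusted p = 0.00411) and the potassium channel subunit Kcne3 (-1.26 ± 0.18, adjusted p = 0.00222) fell. The creatine transporter Slc6a8 (1.31 ± 0.18, adjusted p = 0.00204) rose. Of 23 retinoid genes 4 rose and 4 fell, 17.4% each way and little above the shares over all genes. Bco1 (-1.41 ± 0.31, adjusted p = 0.00995), which cleaves beta-carotene, and Lrat (-1.17 ± 0.30, adjusted p = 0.0193), which stores retinol as esters, fell, and the receptor Rarg (1.65 ± 0.23, adjusted p = 0.00222) rose. Over the fits without 1 culture, 3 (without control culture 3) to 12 of the factors rose, and 3 (in 3 of the 8 fits) to 6 (without mutant culture 4) retinoid genes rose and 2 (in 4 of the 8 fits) to 10 fell.

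Secretory lineages differed. Goblet markers moved both ways, whereas Paneth markers and, with all cultures, tuft markers were called lower more often than higher. Goblet cells make mucus, and of 26 tested goblet markers 7 rose and 7 fell. Clca1, a secreted protease of mucus, measured 35.0, 35.2, 38.4 and 36.4 CPM in the control cultures and 91.3, 84.7, 160 and 119 CPM in the mutant cultures, at 1.65 ± 0.19, adjusted p = 0.00182, with even control values. Fcgbp, a large mucus protein, measured 863, 331, 328 and 268 CPM in the control cultures and 1304, 1140, 1399 and 962 CPM in the mutant cultures, at 1.42 ± 0.35, adjusted p = 0.0154, with control culture 1 nearly at the lowest mutant value. The kallikrein Klk1 and the tryptase Tpsg1 of goblet cells fell, -1.80 ± 0.34, adjusted p = 0.00525 and -1.16 ± 0.21, adjusted p = 0.00476. Muc2, the main mucin, measured 177, 43.6, 36.8 and 46.9 CPM in the control cultures and 82.2, 72.9, 125 and 115 CPM in the mutant cultures. It did not pass (0.38 ± 0.47, adjusted p = 0.591) with all cultures and did without control culture 1 (1.25, adjusted p = 0.000378), the highest of all 8. Paneth cells secrete antimicrobial peptides in the crypt, and of 24 Paneth markers 0 rose and 6 fell, or 20 without control culture 1. Their share of the counts, 0.650 ± 0.183% against 0.440 ± 0.0535%, did not pass (exact permutation p = 0.143). The lysozyme gene Lyz1 measured 1441, 2971, 2248 and 2188 CPM in the control cultures and 1104, 1062, 1590 and 1006 CPM in the mutant cultures, at -0.89 ± 0.24, adjusted p = 0.0209, and the pentraxin genes Mptx1 (-2.72 ± 0.62, adjusted p = 0.0116) and Mptx2 (-1.37 ± 0.23, adjusted p = 0.00356) fell. These Paneth genes belong to families of near-identical copies among which reads may be split. Among 29 tuft cell markers 2 rose (6.90%) and 6 fell (20.7%), and 4 had a log2 fold change above 0. Summed, they measured 772 to 1006 CPM in the controls and 597 to 646 CPM in the mutants. Without control culture 1, 4 rose and 4 fell. Rgs13, a regulator of G protein signalling, went from 6.33, 3.26, 3.26 and 4.09 CPM to 1.30, 1.20, 1.32 and 1.61 CPM (-1.64 ± 0.27, adjusted p = 0.00348), and Plcg2 (0.85 ± 0.12, adjusted p = 0.00224) rose. The tuft cell kinase gene Dclk1 measured 3.58 to 13.2 CPM in the controls and 4.12 to 7.91 CPM in the mutants and did not pass (-0.19 ± 0.38, adjusted p = 0.760). Of 39 enteroendocrine markers 2 rose (5.13%) and 3 fell (7.69%), shares below those over all genes. Chga, chromogranin A, was called higher (0.78 ± 0.25, adjusted p = 0.0412), a call lost in 7 of the 8 fits that left out 1 culture, and Gcg, the glucagon gene, lower (-0.66 ± 0.17, adjusted p = 0.0179), and Reg4 measured 448, 251, 218 and 291 CPM in the control cultures and 108, 106, 131 and 139 CPM in the mutant cultures, at -1.32 ± 0.22, adjusted p = 0.00355. The rises among enteroendocrine markers numbered 0 (in 6 of the 8 fits) to 9 when 1 culture was left out. For the other lineages the fits gave 4 (without control culture 3) to 12 rises and 5 (in 6 of the 8 fits) to 7 falls of goblet markers, 3 (in 3 of the 8 fits) to 20 falls of Paneth markers and 2 (without mutant culture 2 or control culture 4) to 6 (without mutant culture 4) falls of tuft markers.

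Crypt and cell cycle genes divided too. Of 32 stem cell markers 8 rose and 3 fell. Olfm4, an abundant secreted product of crypt base cells, measured 1523, 3635, 3823 and 5533 CPM in the control cultures and 1243, 1153, 557 and 1744 CPM in the mutant cultures, at -1.63 ± 0.41, adjusted p = 0.0174. Control culture 1 overlapped the mutants. The Wnt receptor and stem cell marker Lgr5 measured 277, 120, 157 and 156 CPM in the control cultures and 263, 248, 205 and 156 CPM in the mutant cultures and did not pass (0.30 ± 0.26, adjusted p = 0.431). The Eph receptors Ephb2 (0.86 ± 0.17, adjusted p = 0.00668) and Ephb3 (0.84 ± 0.16, adjusted p = 0.00505), which position cells along the crypt, and the RNA-binding protein Msi1 (1.03 ± 0.20, adjusted p = 0.00639) rose. S phase genes fell in 16 of 46 with 1 rising, including cyclin E2, Ccne2, with 24.7, 26.4, 27.1 and 26.9 CPM in the control cultures and 12.2, 10.5, 11.1 and 13.1 CPM in the mutant cultures, at -1.16 ± 0.12, adjusted p = 0.00177, the clamp loader subunit Rfc4 (-1.11 ± 0.14, adjusted p = 0.00192) and the sliding clamp Pcna (-0.71 ± 0.20, adjusted p = 0.0246). Mitotic genes had 11 lower and 4 higher of 48. The mitotic kinase gene Plk1 (0.67 ± 0.12, adjusted p = 0.00509) rose, and Mki67, a marker of cycling cells, measured 316 to 370 CPM in the controls and 360 to 418 CPM in the mutants without passing (0.20 ± 0.12, adjusted p = 0.221). Leaving out single cultures, 7 (in 5 of the 8 fits) to 15 stem cell markers rose and 0 (without control culture 4) to 4 fell, and 9 (without control culture 2 or control culture 3) to 22 S phase and 6 (without control culture 2 or control culture 3) to 14 G2 and M phase genes fell.

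Several of the genes with the largest rises were expressed at low levels in the controls. Ano3, which encodes an anoctamin, measured 0, 0.129, 0.435 and 0.323 CPM in the control cultures and 4.02, 4.93, 16.4 and 2.28 CPM in the mutant cultures, at 4.95 ± 0.85, adjusted p = 0.00389. Stox2, a winged helix gene, measured 0.821, 0.451, 0.528 and 0.610 CPM in the control cultures and 8.54, 9.69, 17.3 and 7.04 CPM in the mutant cultures, at 4.13 ± 0.35, adjusted p = 0.00105. Mutant culture 3 was highest for both, and no mutant value reached down to a control value. The borate transporter family gene Slc4a11 (3.65 ± 0.46, adjusted p = 0.00192), the LIM protein gene Crip2 (3.49 ± 0.51, adjusted p = 0.00241), the zinc finger gene Zfp385a (3.20 ± 0.36, adjusted p = 0.00181) and the platelet endothelial receptor gene Pear1 (2.60 ± 0.49, adjusted p = 0.00529) shared this order, in which mutant culture 3 had the top value. Falls of this size were fewer. G0s2, an inhibitor of triglyceride lipase, measured 13.8, 7.41, 7.36 and 4.20 CPM in the control cultures and 2.14, 1.66, 0.291 and 1.17 CPM in the mutant cultures, at -2.64 ± 0.53, adjusted p = 0.00709. The phosphatase gene Ptpn22 (-1.92 ± 0.37, adjusted p = 0.00610), the Bcl2-like gene Bcl2l15 (-1.84 ± 0.38, adjusted p = 0.00748) and the secreted ribonuclease gene Rnase1, with 55.0, 64.6, 76.3 and 90.3 CPM in the control cultures and 22.8, 18.5, 27.9 and 27.3 CPM in the mutant cultures and -1.57 ± 0.19, adjusted p = 0.00185, fell without overlap. Among long noncoding RNAs the imprinted H19, a fetal transcript, was near absence in the controls, at 0, 0.226, 0.0311 and 0.0718 CPM, and measured 1.27, 0.831, 3.04 and 1.20 CPM in the mutants, and Gm45889 rose from 0.821, 1.06, 1.99 and 1.33 CPM to 6.37, 7.97, 13.0 and 3.48 CPM, at 2.56 ± 0.42, adjusted p = 0.00339.

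Across the whole table the direction of change went with gene length and class. In 5 equal bins of protein-coding genes by exon length, the median log2 fold change was -0.30, -0.04, 0.05, 0.10 and 0.18 from shortest to longest. The shortest bin had 162 genes higher and 562 lower, the longest 652 and 275. With a length offset per culture the bin medians were -0.16 to -0.03, and 2071 genes were called higher and 2844 lower in place of 2341 and 2437. Whether the length trend is a property of the cells or of the libraries cannot be told apart here. Processed pseudogenes had 12 higher and 216 lower of 1168, and still 21 and 124 with the offset. Their summed share of counts was 1.24 ± 0.172% against 0.790 ± 0.104% (exact permutation p = 0.0286, adjusted 0.0429). Many are copies of short, highly expressed genes such as those for ribosomal proteins, from which reads can be assigned to them. Genes for C2H2 zinc finger factors, many of them repressors arranged in clusters, had 42 higher and 124 lower of 447 and a median of -0.31. With the offset they had 38 and 152 and a median of -0.40. Zfp931 of this family measured 5.26, 5.42, 6.24 and 5.82 CPM in the control cultures and 2.46, 2.26, 1.77 and 2.83 CPM in the mutant cultures, at -1.28 ± 0.20, adjusted p = 0.00293. Among autosomes, chromosome 13 had the fewest rises for its falls, 45 and 150 of 725 tested genes.

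**Figure D4:**
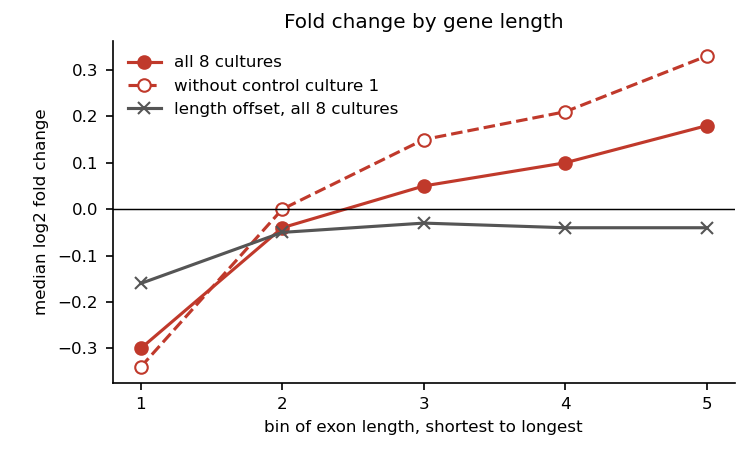
Median log2 fold change, MYO5B(G519R) against control, of protein-coding genes in 5 equal bins of exon length from shortest to longest (horizontal axis), with all 8 cultures (filled), without control culture 1 (open) and with a length offset per culture (crosses). The medians with all cultures climb from -0.30 to 0.18, and with the offset they lie between -0.16 and -0.03.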

How the data were processed

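Polyadenylated RNA of 16 enteroid cultures was sequenced as paired-end reads, and the 8 control and MYO5B(G519R) cultures were analysed here. According to the methods and the submitters' processing notes, the authors aligned reads to GRCm38 (mm10) with STAR 2.5 and TopHat and counted them per gene with HTSeq 0.6.1. Strand setting and multi-mapped reads are not given in the sources used here. The deposited counts are raw read counts per gene. The deposited FPKM values, which equal the counts divided by gene length and 1 constant per library, were used only as an alternative.

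A gene was kept when 2 or more of the 8 libraries had 10 or more counts of it. Libraries were scaled by TMM and genes tested with edgeR 4.0.16 (quasi-likelihood F test, R 4.3.3), with Benjamini-Hochberg adjustment over all genes tested and a threshold of 0.05. No covariate was used. CPM are counts per 1000000 of the TMM-scaled library size. Shares of counts were compared by two-sided exact permutation over the 70 splits of 4 against 4. The fits were tried on simulated counts of 17829 genes. There edgeR recovered 54 of 100 genes changed by a log2 fold of 1 and 92 of 100 changed by 2, with 12 false calls. DESeq2 recovered 73 and 97 of them, with 57 false calls. Groups came from the sample labels. Alternatives were DESeq2 1.42.0, DESeq2 size factors, library sizes without the mitochondrial genome, filterByExpr, no filter, all 4 groups in 1 fit, a replicate block, a gene length offset, robust dispersions, limma 3.58.1 on log2(FPKM + 1), and leaving out each library.

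The 64 gene lists and 29 symbol families were chosen with earlier results of these data known. Permutation p-values for the share of counts on such lists and families are therefore no independent support. Genes were named if they were Myo5b, an anchor of a list, among the 20 largest changes each way that were called, free of overlap and at a mean of at least 5 CPM in the higher group, among the 3 largest each way in a list at 1 CPM, among the 10 largest CPM differences each way, or among the 5 leading long noncoding RNAs each way. Anchors and other members were named only in part, and some results are not reported here. Promoter windows were taken from RefSeq GRCm38.p6. The separation of replicates by mouse comes from a figure legend of the study, and the p-values measure the spread between these cultures.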

Additional observations from a re-analysis of the deposited data

Results flagged for a closer look

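For each named gene and each share of counts, the 4 cultures of a group were examined for a single culture far from the other 3. Of 396 groups examined 51 held such a culture, where chance gives about 1 in 20. Mutant culture 3 was the high culture in 21 of them and the low one in 2, and control culture 1 the high culture in 14 and the low one in 8. By Xist, control culture 1 was 1 of the 2 female controls. Mutant culture 3 was the only mutant culture from a female mouse by Xist, although it held a few Y-linked reads. The genes are not independent of each other, and what sets these cultures apart was not tested.

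Mutant culture 3 lay above the other mutant cultures, in TMM-scaled CPM, for the adhesion and cytoskeletal genes Itgb4 (321), Myh9 (968), Dync1h1 (388) and Cldn4 (327) and the recycling adaptor Rab11fip1 (164). It was also high for the YAP genes Ctgf (18.3) and Ptpn14 (39.6), the immediate early and feedback genes Egr1 (42.6), Nr4a1 (12.8) and Dusp6 (67.3), the p53 targets Zmat3 (170) and Phlda3 (60.3), the receptor Notch2 (38.4) and the survival gene Bcl2l1 (67.9). The same held for the transporters Abcb1b (16.0) and Slc15a1 (48.2), the factor Hnf4g (125), the lysozyme Lyz1 (1590), and for Crip2 (27.9) and Zfp385a (29.0). Paneth markers took 0.520% of its counts, above the other mutant cultures. It was low for Cth (70.9) and Atf4 (187). The other 3 mutant cultures were still above the controls for Itgb4, Myh9, Cldn4 and Ptpn14.

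Control culture 1 lay above the other controls, and so towards the mutant cultures, for Itgav (27.0), Pcdh1 (82.4), Cdh1 (962), Egr1 (23.4), Fos (28.0), Nfkb2 (30.8), Polg (50.6), Hk2 (91.4), Abcc4 (20.4) and Fcgbp (863). It was low, again on the side of the mutants, for the mitochondrial genes Ndufv2 (175), Ndufc1 (67.3), Sdhb (213), Atp5c1 (387), Decr1 (83.6) and Hspe1 (279) and for B2m (362) and Casp1 (80.4). Its basement membrane share, 0.215% of the counts, was the highest control value. For Muc2 (177) it exceeded all mutant cultures, and for Eno3 (27.5) and Slc7a2 (23.5) it was high although the mutants were lower than the controls.

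Mutant culture 4 was low for Junb (91.0) and Dpp4 (86.2) and high for Kcne3 (59.9) and Selenos (45.5). Control culture 2 held the only Ankrd1 counts of the controls (0.0645), and control culture 3 was the high control for Crip2 (1.80).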

How the results depend on the processing

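The direction of the 177 named genes that passed the test turned under no alternative run. Many of these genes were named because they were called and free of overlap in these same cultures, so that outcome was largely fixed by the choice of genes. Of the 192 named genes, 171 kept their direction and their side of the threshold in every alternative with all libraries in which they could be tested. When the fits that left out 1 culture were included, 153 of the 192 did so. The number of changed genes, 4778, was 5619 with DESeq2 (2931 higher and 2688 lower), 4647 with DESeq2 size factors, 4778 with the mitochondrial genome left out of the library sizes, 4873 with filterByExpr, 4244 with no filter, 4744 with all 4 groups in 1 fit, 4761 with robust dispersions and 4528 with limma on log2(FPKM + 1). With the replicate block it was 3691, of which 1969 were higher and 1722 lower. The deviations of same-numbered mutant and control cultures from their group means correlated weakly (r = -0.002, -0.020, -0.069 and 0.113). These r lay within the range of mutant and control pairs with different numbers. Deviations cancel within each group and so depend on each other, so these r cannot decide whether same-numbered cultures belong together. Whether they shared a preparation was not tested. The length offset moved the split to 2071 higher and 2844 lower.

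Leaving out 1 culture at a time gave 2880 to 8146 changed genes, 1449 to 4244 higher and 1410 to 3902 lower, and 5212 to 8883 genes free of overlap. The count rose to 8146 without control culture 1 and fell to 2880 without control culture 3, 3028 without control culture 4, 2960 without mutant culture 2 and 3164 without mutant culture 1. In all 8 of these fits 1323 genes were called higher and 1226 lower. Against the induced knockout, 1 gene differed, 4 with DESeq2, 1 with the replicate block and 0 to 2 with 1 culture left out. With 1 culture left out the differences in share of counts, in percentage points of mutant minus control, were -4.98 to -3.65 for the mitochondrial genome, -5.25 to -3.64 for cytosolic ribosomal proteins, -0.524 to -0.391 for processed pseudogenes and 0.113 to 0.154 for basement membrane genes. Their adjusted exact permutation p-values were then 0.0571 to 0.0857, since the smallest two-sided exact p of 3 against 4 cultures is 0.0571.

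The log2 fold changes that turned were all of genes that did not pass the test. With the length offset they were -0.08 for Stx3, -0.07 for Slc15a1 and -0.03 for Mki67. With 1 culture left out they ran from -0.03 to 0.09 for Rab11a, from -0.09 to 0.55 for Lct, from -0.20 to 0.09 for Slc5a1, from -0.24 to 0.40 for Slc15a1 and from -0.41 to 0.34 for Dclk1. Beyond the choices whose construction removes samples or genes, the cause was not tested. With 31466387 to 36920083 counted reads per culture, genes with a few counts had no usable fold.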

Other observations

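Genes of the Notch pathway, not described above, rose more often than all genes did (13.1%), whereas the arginine, heat shock, unfolded protein and cell death lists below had shares higher and lower near the 13.1% and 13.7% over all genes. Notch receptors are cut on contact with ligands of neighbouring cells and decide between absorptive and secretory fates. Of 35 tested Notch pathway genes 9 rose (25.7%) and 0 fell, at a median of 0.25 on the log2 scale, and 5 (without control culture 2) to 17 rose with 1 culture left out, the most without control culture 1. Notch3 measured 0.943, 1.45, 0.838 and 0.790 CPM in the control cultures and 10.1, 9.14, 23.2 and 5.67 CPM in the mutant cultures, at 3.57 ± 0.45, adjusted p = 0.00192, and every mutant culture lay above every control. The receptor Notch2 (1.17 ± 0.28, adjusted p = 0.0127) and the coactivator Maml2 (2.45 ± 0.48, adjusted p = 0.00643) also rose, whereas Hes1, a direct target that holds back secretory differentiation, measured 68.3 to 103 CPM in the controls and 66.1 to 87.2 CPM in the mutants and the secretory master factor Atoh1 measured 11.1 to 16.0 CPM in the controls and 10.2 to 12.1 CPM in the mutants, and neither passed (-0.19 and -0.32, adjusted p = 0.359 and 0.143). Among 26 serine, one-carbon and polyamine genes 7 fell (26.9%) and 1 rose, among them cystathionine gamma-lyase, Cth (-1.41 ± 0.24, adjusted p = 0.00375). Without control culture 1 the counts were 8 lower and 7 higher. In arginine and proline metabolism 3 of 22 rose and 3 fell. Argininosuccinate synthase, Ass1, measured 10.2, 9.45, 12.7 and 8.90 CPM in the control cultures and 25.3, 22.6, 36.5 and 16.5 CPM in the mutant cultures, at 1.29 ± 0.23, adjusted p = 0.00465, and the cationic amino acid transporter gene Slc7a2 measured 23.5, 7.61, 9.22 and 9.26 CPM in the control cultures and 3.91, 5.48, 5.03 and 3.01 CPM in the mutant cultures, at -1.51 ± 0.37, adjusted p = 0.0149. With 1 culture left out, 2 (in 7 of the 8 fits) to 5 rose and 2 (in 6 of the 8 fits) to 6 fell on the arginine list.

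Stress programs did not move together. Of 32 genes of the integrated stress response, the program that slows translation and induces amino acid synthesis through ATF4, 5 fell (15.6%) and 0 rose, but 8 rose and 3 fell without control culture 1. Atf4 measured 431, 371, 376 and 334 CPM in the control cultures and 270, 259, 187 and 272 CPM in the mutant cultures, at -0.61 ± 0.15, adjusted p = 0.0158, and the groups did not overlap. Of 34 unfolded protein response genes 4 rose and 6 fell: the sensor kinase Eif2ak3 (0.72 ± 0.13, adjusted p = 0.00521) rose and Selenos (-0.82 ± 0.17, adjusted p = 0.00677) fell. Of 23 heat shock genes 4 rose and 3 fell. The inducible Hsp70 gene Hspa1b measured 3.13, 3.13, 1.83 and 2.15 CPM in the control cultures and 6.89, 6.91, 13.6 and 10.9 CPM in the mutant cultures, at 1.90 ± 0.29, adjusted p = 0.00276, the near-identical Hspa1a (2.11 ± 0.43, adjusted p = 0.00724) rose with it, and reads of the pair may not be told apart. The mitochondrial cochaperonin gene Hspe1 (-0.80 ± 0.18, adjusted p = 0.0119) fell. Of 40 inflammasome, gasdermin and cell death genes 6 rose and 7 fell. The inflammatory caspase gene Casp1 measured 80.4, 133, 133 and 142 CPM in the control cultures and 63.4, 63.4, 52.3 and 70.6 CPM in the mutant cultures, at -0.97 ± 0.18, adjusted p = 0.00523, and the survival gene Bcl2l1 (1.04 ± 0.15, adjusted p = 0.00229) rose. Leaving out 1 culture, with the highest counts without control culture 1 unless another is named, gave 2 (in 5 of the 8 fits) to 6 (without control culture 4) falls on the integrated stress list, 3 (in 7 of the 8 fits) to 6 rises and 2 (in 3 of the 8 fits) to 14 falls on the unfolded protein list, 4 (in 7 of the 8 fits) to 7 and 2 (in 6 of the 8 fits) to 4 on the heat shock list and 4 (in 5 of the 8 fits) to 10 and 4 (in 6 of the 8 fits) to 12 on the cell death list.

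Some transcripts were present in some cultures and nearly absent or far lower in others, in some cases within the same group. Nlrp1b, which encodes an inflammasome sensor, had 0 counts in all 4 control cultures and 93, 176, 166 and 83 counts in the mutant cultures, a level at least 33.8-fold higher than the 3 counts that a control culture at 0 allows. In the 4 induced knockout cultures it had 0, 151, 216 and 1 counts, and 0 in all 4 knockout cultures with the drug. Rpl26 (chromosome 11, 68901583 to 68906989) divided the same cultures: it had 817, 1034, 936 and 1146 counts in the controls, 11615, 11306, 9041 and 12449 in the mutants, 480, 10042, 10273 and 401 in the induced knockouts and 482, 723, 487 and 436 with the drug. The 2 genes lie 2.25 Mb apart, and of the 109 other genes tested between them 25 were called higher and 7 lower in the mutants, 29.4% in all. On chromosome 6, Gm45063, chosen like the next 2 genes after its values were seen, had 0 counts in all controls and 19, 16, 64 and 11 in the mutants. It did not split within a group, with 17 to 41 counts in the induced knockouts and 18 to 49 with the drug. Gm44275 had 0, 1, 0 and 0 against 20, 57, 66 and 41, with 19 to 52 in the induced knockouts and 33 to 156 with the drug. Gapdh, a common reference gene for scaling, varied within the controls from 1231, 1476 and 10074 to 10773 counts and within the mutants from 2226 to 13579.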
